A study of Mus musculus with 6 samples.

Results

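The genes described here encode the machinery of DNA replication and mitosis, and they were followed across arrays of splenic CD11c+ cells from Atg16L1 hypomorphic and wild-type mice. They were taken from a list of 38 named genes, and a gene counted as measured if a probe set named that gene and no other. Of the 38, 35 were measured among 12393 genes in all, and each was represented by its probe set with the highest mean over the 6 arrays. The 3 without such a probe set, Gins2, Ccnb1 and Cdca8, were not analysed here. The 35 were divided by role into 14 S-phase genes, which act in origin licensing, the replication fork and deoxynucleotide supply, and 21 mitotic genes.

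The tested mice were Atg16L1 hypomorphs and the control mice were wild type, with 3 arrays in each group. All were C57BL/6J mice aged 8 weeks that had received no treatment. A hypomorph keeps only some of a gene's function, and ATG16L1 helps to couple ATG8 proteins to the membrane of forming autophagosomes. The labels state neither the making of the allele nor whether each array came from its own animal, and the p-values thus cover only the variation among these samples, which may be technical. CD11c+ cells were taken from the spleen with magnetic beads, and RNA was hybridized to Affymetrix arrays that give 1 log2 value per probe set.

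In a dividing cell, cyclin E with CDK2 starts S phase, the MCM helicase unwinds DNA at licensed origins, and the PCNA clamp holds the polymerases on their template. E2F factors drive many of these genes. Later, cyclins A and B with CDK1 bring about mitosis, Aurora and Polo kinases build the spindle, the checkpoint kinases hold anaphase back, and CDC20 with UBE2C lets it proceed. Many mitotic genes are controlled by the MuvB complexes through a promoter element called CHR (cell cycle genes homology region), often together with CCAAT boxes bound by NF-Y. Most mature splenic dendritic cells do not divide, but their precursors and a share of conventional dendritic cells in the spleen do, as do erythroblasts and plasmablasts, so RNA of these genes in a bulk sample can come from few cells. In such samples fewer cells of a type and less RNA per cell cannot be told apart.

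The arrays were checked first. Atg16l1 was at 6.13, 5.84 and 6.11 on the hypomorph arrays, against 7.05, 7.11 and 7.04 on the wild-type arrays (log2 change -1.04, SE 0.097, adjusted p = 0.00163 by limma). Itgax, which encodes CD11c, was at 9.87 to 10.01 in the hypomorph and 10.20 to 10.45 in wild type, and the dendritic cell factor gene Zbtb46 at 7.84 to 8.03 and 8.36 to 8.66. Both fell (adjusted p = 0.0341 and 0.0106), and of the 9 measured dendritic cell markers 3 fell, 1 rose, Xcr1 (0.46, adjusted p = 0.0382), and 8 were below 0. The part of this shift in the values below was not tested. The B cell gene Ms4a1 was also bright, at 10.71 to 11.25 in the hypomorph and 11.48 to 11.83 in wild type, so these cell preparations hold RNA of B cells as well. The mean of 24 poly-A spike-in probe sets, bacterial transcripts added before labelling, was 7.69 ± 0.18 in the hypomorph and 9.48 ± 0.50 in wild type (SD, n = 3 each). Over all genes 18.2% passed an adjusted p under 0.05, with 8.47% lower and 9.76% higher in the hypomorph, and these are the shares against which counts are read below.

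Wild-type replicate 2 was low among the wild-type arrays in these genes. It was the lowest of the 3 wild-type arrays for 34 of the 35 genes, against 4556 of all 12393, the exception being Foxm1 by the probe set used. It was the lowest of all 6 arrays for 21 of the 35, against 15.9% of all genes. Over all genes its correlation was 0.9861 with wild-type replicate 1 and 0.9933 with wild-type replicate 3, which correlated at 0.991 with each other. Results are therefore given with and without wild-type replicate 2, beside the same for every other array. Over all genes, wild-type replicate 1 and not 2 had the lowest limma array weight, which is lower where an array's values deviate more. The weights were 0.33, 0.63 and 1.26 for wild-type replicates 1, 2 and 3. By their titles, however, the other wild-type arrays are the ones that differ. The title of wild-type replicate 1 opens with another number than all other titles, and that of wild-type replicate 3 names another array type. Wild-type replicate 2 shares both labels with the hypomorph arrays. The part of these label differences in the values was not tested.

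Promoters of these genes are printed for the members whose change passed the test, Mcm7 and Ccne1, and for the mitotic genes Top2a and Cdc20, which were chosen after their values were seen as examples of promoters with CHR and CCAAT matches. The sequences are from RefSeq (GRCm38.p6), 280 bases each, 5′ to 3′ on the gene's own strand, from 250 bases before to 30 bases after an annotated transcription start. Capitals mark matches, on either strand, to the E2F core (TTCGCG or TTGGCG), the CHR (TTTGAA or TTCGAA) and the CCAAT box (CCAAT). Mcm7 has 2 annotated starts, of which the second lies downstream. All 5 windows are on the minus strand.
Mcm7, first start, chr5:138171854-138172133: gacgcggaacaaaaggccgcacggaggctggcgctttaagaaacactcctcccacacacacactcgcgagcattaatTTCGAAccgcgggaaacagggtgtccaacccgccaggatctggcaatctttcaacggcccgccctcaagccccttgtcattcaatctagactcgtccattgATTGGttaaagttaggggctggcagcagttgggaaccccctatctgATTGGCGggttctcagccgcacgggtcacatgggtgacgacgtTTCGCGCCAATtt
Mcm7, second start, chr5:138171237-138171516: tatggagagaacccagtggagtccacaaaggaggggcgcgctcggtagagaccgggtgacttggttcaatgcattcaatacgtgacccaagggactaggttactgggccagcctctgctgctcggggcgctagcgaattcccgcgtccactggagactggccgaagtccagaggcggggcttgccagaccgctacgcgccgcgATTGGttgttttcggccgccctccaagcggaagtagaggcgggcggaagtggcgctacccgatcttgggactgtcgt
Ccne1, chr7:38107461-38107740: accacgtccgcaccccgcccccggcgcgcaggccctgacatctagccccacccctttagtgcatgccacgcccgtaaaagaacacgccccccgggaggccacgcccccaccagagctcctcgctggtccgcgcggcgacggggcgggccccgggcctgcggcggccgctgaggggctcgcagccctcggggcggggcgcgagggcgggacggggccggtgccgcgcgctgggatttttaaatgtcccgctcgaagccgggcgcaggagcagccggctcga
Top2a, chr11:99024160-99024439: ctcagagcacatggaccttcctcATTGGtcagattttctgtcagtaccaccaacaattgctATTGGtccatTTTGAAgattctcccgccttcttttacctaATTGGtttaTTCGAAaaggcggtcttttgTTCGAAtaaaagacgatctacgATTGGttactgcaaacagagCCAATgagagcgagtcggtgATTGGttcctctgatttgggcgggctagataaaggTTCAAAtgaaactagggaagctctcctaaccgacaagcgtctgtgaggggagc
Cdc20, chr4:118437314-118437593: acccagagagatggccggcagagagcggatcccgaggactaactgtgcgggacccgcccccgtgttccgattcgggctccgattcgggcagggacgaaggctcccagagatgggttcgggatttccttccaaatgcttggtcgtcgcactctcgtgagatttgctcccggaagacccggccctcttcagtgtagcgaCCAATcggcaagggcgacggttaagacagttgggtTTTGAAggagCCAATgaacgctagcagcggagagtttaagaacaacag

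The first Mcm7 window held 3 matches to the E2F core. The first began 25 bases before the start, where it overlaps a CCAAT match, and the others began at bases 18 and 22 after it, overlapping each other, with the later of them also overlapping a CCAAT match. The window also held 1 CHR match, 173 bases before the start. The Ccne1 window held no match to any of the 3 motifs. Top2a had 4 CHR and 6 CCAAT matches, and Cdc20 had 1 CHR match, 18 bases before the start, and 2 CCAAT matches.

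Promoter windows were found for 28 of the 35 genes, 29 windows in all, and the motifs were unevenly spread over the roles. A CHR match was present in 12 of 16 mitotic windows (75%) and in 2 of 13 S-phase windows (15.4%), against 18.4% of all 32851 mouse windows of that length. A CHR and a CCAAT match together were present in the same 12 mitotic windows and in 2 S-phase windows, against 6.92% of all windows. The E2F core was present in 3 mitotic windows (18.8%) and 4 S-phase windows (30.8%), against 9.95% of all. The 12 mitotic genes were Bub1, Bub1b, Ccnb2, Cdc20, Cdk1, Cenpa, Hmmr, Kif11, Mki67, Top2a, Ttk and Ube2c. Such matches describe the letters of these windows and do not show that a factor binds there.

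The S-phase genes were lower in the hypomorph for 12 of 14 members (59% of all genes were below 0), of which 2 passed the test. Mcm7 and Ccne1 fell and no S-phase gene rose (8.47% and 9.76% of all genes did), and the median log2 change was -0.21, against -0.05 over all genes. By the probe sets used, the groups did not overlap for 5 S-phase genes, all lower in the hypomorph, namely Mcm7, Ccne1, Mcm5, Mcm4 and Tyms. Of all genes, 22.5% were lower without overlap. The plot of all 35 genes by array shows the S-phase genes above the line.

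**Figure D1:**
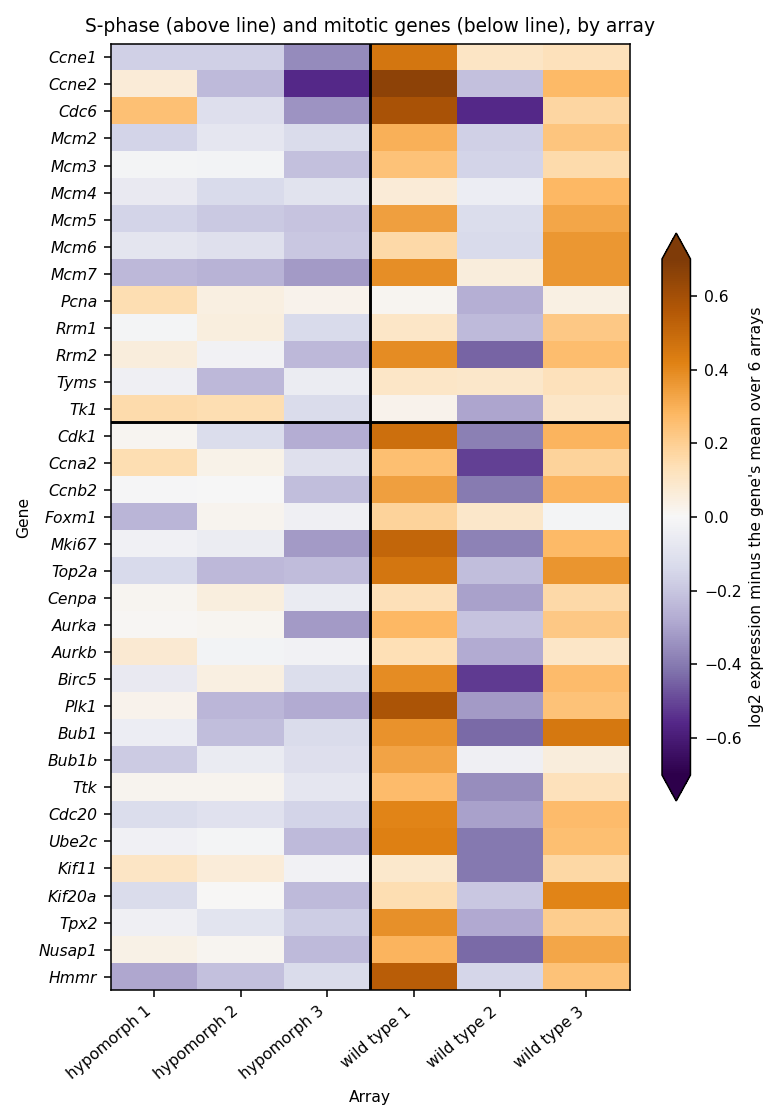
Log2 expression of each of the 35 genes on each of the 6 arrays, as the difference from that gene's mean over all 6 arrays (colour), with 14 S-phase genes above the horizontal line and 21 mitotic genes below it. Wild-type replicates 1 and 3 are above their gene's mean for most genes, and wild-type replicate 2 is the lowest of the 3 wild-type arrays for 34 of 35 (4556 of all 12393 genes).

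Mcm7 encodes a subunit of the hexameric MCM helicase. It was at 10.16, 10.14 and 10.08 on the hypomorph arrays, against 10.78, 10.45 and 10.76 on the wild-type arrays. Each hypomorph array was below each wild-type array, and the change was 1.45-fold (log2 change -0.54, SE 0.105, adjusted p = 0.0168). Of its 3 other probe sets, tested beside all single-gene probe sets, 1 also fell (-0.52, adjusted p = 0.0242), and the others, at -0.31 (adjusted p = 0.108) and -0.18 (adjusted p = 0.393), did not pass. The call was lost without any 1 hypomorph array, where the adjusted p reached 0.0761, and with the mean of its probe sets, and its size ranged from -0.65 to -0.48 over the 6 fits that each leave out 1 array.

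Ccne1 encodes cyclin E1, the partner of CDK2 at the entry to S phase. It had 5.47, 5.47 and 5.28 on the hypomorph arrays, against 6.10, 5.74 and 5.77 on the wild-type arrays. Its mean over the 6 arrays was below that of the median gene. The groups did not overlap, and the change was 1.38-fold (log2 change -0.46, SE 0.119, adjusted p = 0.039). The call was lost without any 1 hypomorph array or wild-type replicate 3, with an adjusted p of up to 0.136. It was also lost after quantile normalization and with the replicate number as a block, and with the spike-in signal as a covariate its sign turned (log2 change 0.091). Ccne2, for cyclin E2, had 5.79, 5.49 and 5.17 on the hypomorph arrays, against 6.39, 5.51 and 6.00 on the wild-type arrays. Its change was of like size but the arrays overlapped, and it did not pass (log2 change -0.48, SE 0.244, adjusted p = 0.217).

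The other MCM subunits were below 0 as well, without passing. Mcm5 was at 7.46, 7.42 and 7.41 in the hypomorph, against 7.95, 7.49 and 7.94 in wild type (log2 change -0.36, SE 0.133, adjusted p = 0.102). The groups did not overlap, and wild-type replicate 2 lay just above the hypomorph arrays, far below the other wild-type arrays. Mcm2 (-0.24), Mcm3 (-0.17), Mcm4 (-0.20) and Mcm6 (-0.26) had adjusted p-values from 0.207 to 0.397. A second probe set of Mcm2 fell (-0.47, adjusted p = 0.0366 among all single-gene probe sets). Cdc6, which loads the helicase at origins, had the widest wild-type range of the S-phase set. It was at 6.18, 5.82 and 5.59 in the hypomorph, against 6.51, 5.38 and 6.10 in wild type. Its wild-type arrays spanned 1.13 and its groups overlapped fully, with a log2 change of -0.13 (adjusted p = 0.787).

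Pcna, which encodes the sliding clamp of the replicative polymerases, did not share the direction of the helicase genes. It was at 11.49, 11.39 and 11.37 in the hypomorph, against 11.36, 11.08 and 11.39 in wild type (log2 change 0.14, SE 0.103, adjusted p = 0.376), and at -0.0034 after quantile normalization. Tk1, the thymidine kinase of the salvage pathway, was the other S-phase gene above 0 (7.31, 7.29 and 7.02 in the hypomorph, against 7.17, 6.85 and 7.25 in wild type, log2 change 0.11, adjusted p = 0.59), and it was at -0.0054 without wild-type replicate 2.

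Of the 4 deoxynucleotide genes none passed with limma (18.2% of all genes did). At an unadjusted p under 0.05 there was 1, Tyms, against 4210 of all 12393 genes. Rrm2 and Rrm1 encode the small and large subunits of ribonucleotide reductase. Rrm2 was at 9.20, 9.11 and 8.90 in the hypomorph, against 9.53, 8.69 and 9.40 in wild type (-0.14, adjusted p = 0.70), and Rrm1 was at 8.25 to 8.44 and 8.15 to 8.61 (-0.06, adjusted p = 0.768). The wild-type arrays enclosed the hypomorph arrays for both. Tyms, for thymidylate synthase, was dim by each of the 3 probe sets that name it alone. The brightest, which was used, was at 3.89, 3.69 and 3.88 in the hypomorph, against 4.03, 4.02 and 4.06 in wild type (-0.22, SE 0.082, adjusted p = 0.113). The others had overlapping groups, at -0.03 (adjusted p = 0.826) and -0.20 (adjusted p = 0.323) among all single-gene probe sets.

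The mitotic genes gave no call in either direction. Of 21 measured, 17 were below 0 and 4 above it (59% of all genes were below 0), with a median log2 change of -0.20. With limma 0 of 21 passed, where 18.2% of all genes did. At an unadjusted p under 0.05 there was 1, Hmmr, against 4210 of all 12393 genes. The range over the 3 arrays had a median of 0.17 in the hypomorph and 0.69 in wild type, and the wild-type range exceeded the hypomorph range for 20 of the 21 genes, against 70.8% of all genes. Wild-type replicates 1 and 3 were both above all 3 hypomorph arrays for 19 of 21 (32.1% of all genes). Wild-type replicate 2 was below all 5 other arrays for 15 of 21 (15.9% of all genes).

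Among the cyclin and kinase genes, Cdk1, the mitotic kinase, had 7.87, 7.73 and 7.59 on the hypomorph arrays, against 8.34, 7.48 and 8.15 on the wild-type arrays. Wild-type replicates 1 and 3 were above and wild-type replicate 2 below the hypomorph arrays, and the log2 change was -0.25 (SE 0.217, adjusted p = 0.457). Ccnb2, for cyclin B2, had the same order of arrays, at 7.99, 7.99 and 7.78 in the hypomorph, against 8.34, 7.60 and 8.29 in wild type (-0.15, adjusted p = 0.625). Ccna2, for cyclin A2, had 8.39, 8.28 and 8.14 in the hypomorph, against 8.50, 7.74 and 8.43 in wild type, a change of 0.05 (adjusted p = 0.891) that was at -0.05 as the mean of its probe sets. Foxm1, for a transcription factor of the mitotic programme, was at 5.66, 5.93 and 5.88 in the hypomorph, against 6.09, 6.01 and 5.90 in wild type, with wild-type replicate 3 the lowest of its group (-0.18, adjusted p = 0.269). Of its 3 other probe sets, 2 were lowest of all arrays on wild-type replicate 2, at 5.31, 5.37 and 5.35 in the hypomorph, against 5.82, 5.28 and 5.72 in wild type for the first of them.

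For chromosome structure, Mki67 encodes Ki-67, the coat protein of mitotic chromosomes used as a proliferation marker, and Top2a the topoisomerase that untangles sister DNA. Mki67 had 9.93, 9.90 and 9.64 in the hypomorph, against 10.47, 9.57 and 10.22 in wild type (log2 change -0.27, SE 0.223, adjusted p = 0.45). Top2a had 9.42, 9.32 and 9.32 in the hypomorph, against 10.01, 9.33 and 9.92 in wild type (-0.40, SE 0.176, adjusted p = 0.159). In both, wild-type replicates 1 and 3 were above all hypomorph arrays, while wild-type replicate 2 lay within the hypomorph range for Top2a and below it for Mki67. Cenpa, the centromeric histone gene, had a change near 0 (8.28 to 8.39 in the hypomorph, 8.04 to 8.50 in wild type, 0.0052, adjusted p = 0.982), and it was at -0.029 after quantile normalization.

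The Aurora and Polo kinase genes and Birc5, which encodes survivin of the chromosomal passenger complex, did not pass either. Plk1 had 6.65, 6.39 and 6.35 in the hypomorph, against 7.20, 6.31 and 6.87 in wild type (-0.33, SE 0.220, adjusted p = 0.34). Birc5 had 7.96, 8.07 and 7.91 in the hypomorph, against 8.41, 7.50 and 8.29 in wild type (-0.09, adjusted p = 0.817), the widest wild-type range of the mitotic genes at 0.91. Aurka and Aurkb did not pass at -0.20 (adjusted p = 0.426) and 0.02 (adjusted p = 0.919), and Aurkb was at -0.035 as the mean of its probe sets.

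The genes of the spindle checkpoint and of anaphase were all below 0, and none passed with limma (18.2% of all genes did). None had an unadjusted p under 0.05 either, against 4210 of all 12393 genes. Cdc20, which activates the anaphase-promoting complex, had 8.38, 8.40 and 8.35 in the hypomorph, against 8.91, 8.20 and 8.77 in wild type (-0.25, SE 0.179, adjusted p = 0.371). Its hypomorph arrays spanned 0.06 and its wild-type arrays 0.72. The other probe sets of Cdc20 were at -0.49 (adjusted p = 0.136) and -0.31 (adjusted p = 0.139), and both were lowest on hypomorph replicate 1. Ube2c, the ubiquitin-conjugating enzyme of that complex, had 8.93, 8.94 and 8.73, against 9.38, 8.56 and 9.21 in wild type (-0.18, adjusted p = 0.579). The checkpoint kinase gene Bub1 had 7.48, 7.31 and 7.40 in the hypomorph, against 7.90, 7.09 and 7.98 in wild type (-0.26, adjusted p = 0.468). Bub1b, for BUBR1, was the only mitotic gene whose groups did not overlap, at 6.491, 6.619 and 6.561 in the hypomorph, against 7.004, 6.638 and 6.735 in wild type (-0.24, SE 0.109, adjusted p = 0.181). Ttk, for the kinase MPS1, was at -0.03 (adjusted p = 0.917) and turned to 0.0020 after quantile normalization.

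Of the spindle genes, Hmmr, for a microtubule-associated hyaluronan receptor, had 6.51, 6.58 and 6.67 in the hypomorph, against 7.33, 6.65 and 7.04 in wild type. By the probe sets used, it was the mitotic gene with the largest change over all 6 arrays, and did not pass (log2 change -0.42, SE 0.168, adjusted p = 0.128). The kinesin genes Kif20a (-0.24) and Kif11 (0.10), the Aurora A activator gene Tpx2 (-0.20) and the spindle protein gene Nusap1 (-0.12) had adjusted p-values from 0.331 to 0.725.

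Without wild-type replicate 2 the picture was different. Then 11 of 21 mitotic genes and 5 of 14 S-phase genes were lower in the hypomorph with an adjusted p under 0.05 and none was higher, while 8.78% of all genes were lower and 9.55% higher in that fit. The mitotic genes were Top2a, Bub1, Cdc20, Hmmr, Cdk1, Tpx2, Mki67, Plk1, Birc5, Ube2c and Ccnb2, and the S-phase genes Mcm7, Mcm5, Mcm2, Ccne1 and Mcm6. Of these 16 the largest changes were Mcm7 at -0.65 (adjusted p = 0.00514), Top2a at -0.61 (adjusted p = 0.00722) and Hmmr at -0.60 (adjusted p = 0.0185), and the median was -0.39 for each set, against -0.07 over all genes. This fit drops an array that is low in these genes, so its calls are not independent of that choice.

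No other left-out array brought mitotic calls. Without hypomorph replicate 1, 2 or 3, 0 of 35 genes passed with limma, where 2.78%, 1.82% and 1.55% of all genes were lower and 4.88%, 4.91% and 4.44% higher. At an unadjusted p under 0.05 these fits had 3, 2 and 2 of the 35, and 3369, 3228 and 3278 of all 12393 genes. The fit over all 6 arrays had 5 of the 35, and 4210 of all genes. Without wild-type replicate 1 Mcm7 and Ccne1 were lower (7.9% of all genes, with 8.92% higher), and without wild-type replicate 3 Mcm7 alone was (6.49% of all genes, with 8% higher). With the replicate number as a block Mcm7 alone was lower (3.86% of all genes, with 6.08% higher). Over the 6 fits the adjusted p of Top2a ran from 0.00722 to 0.334, that of Mki67 from 0.0378 to 0.835 and that of Cdc20 from 0.0176 to 0.706.

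**Figure D2:**
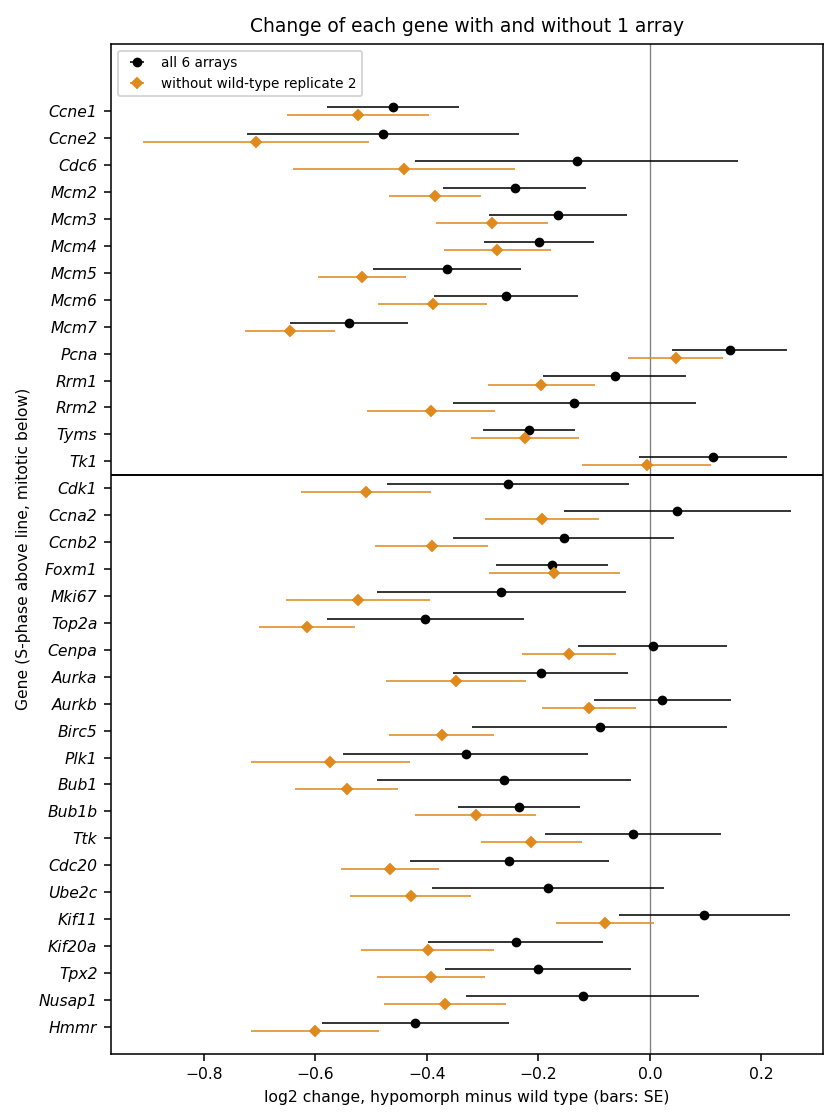
Log2 change (hypomorph minus wild type, with SE) of each of the 35 genes over all 6 arrays (black circles) and without wild-type replicate 2 (orange diamonds), from limma. The S-phase median is -0.21 over all arrays and -0.39 without that array, and the mitotic median is -0.20 and -0.39.

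The S-phase and mitotic genes were then set side by side on each array, as the mean deviation of each set from its genes' means over 6 arrays. The S-phase genes stood at -0.02, -0.09 and -0.21 on the hypomorph arrays and at 0.27, -0.17 and 0.22 on the wild-type arrays. The mitotic genes stood at -0.04, -0.05 and -0.17 on the hypomorph arrays and at 0.33, -0.31 and 0.23 on the wild-type arrays. The sets followed the same order of wild-type arrays, and the mitotic genes spread further. The S-phase mean minus the mitotic mean was between -0.04 and 0.02 on the hypomorph arrays and was -0.06, 0.14 and -0.02 on the wild-type arrays, so wild-type replicate 2 lay lower in mitotic than in S-phase genes. That contrast has 1 array behind it and was not tested. Within the hypomorph, replicate 3 was the lowest of the 3 arrays for 27 of the 35 genes, against 3892 of all 12393.

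Markers of other dividing or RNA-rich cells also differed between arrays. Of the 10 measured erythroid markers 1, Epor, rose and none fell, and they had a mean deviation of 0.75, 0.84 and -0.55 on the hypomorph arrays and 0.29, -0.90 and -0.44 on the wild-type arrays, lowest on wild-type replicate 2 and, within the hypomorph, on replicate 3. Slc4a1, for the erythrocyte anion exchanger band 3, was at 8.69, 9.22 and 6.33 in the hypomorph, against 8.16, 5.39 and 6.71 in wild type. The 9 plasma cell markers stood at -0.33, -0.13 and -0.18 in the hypomorph and at 0.45, -0.05 and 0.25 in wild type, and of these 2 fell. Jchain, for the joining chain of secreted immunoglobulins, was at 9.50, 9.68 and 9.75 in the hypomorph, against 11.88, 10.70 and 11.52 in wild type (log2 change -1.73, adjusted p = 0.00918), the largest change of that list. The plasma cell regulator genes Prdm1 (0.54, adjusted p = 0.0564) and Irf4 (0.54, adjusted p = 0.053) were above 0 without overlap and did not pass, and Xbp1 was at -0.016 (adjusted p = 0.933). The B cell markers, of which 5 of 8 fell, were lowest in wild type on replicate 1 (0.07, against 0.43 and 0.38). Markers of red pulp macrophages rose for 12 of 12 and stood at 0.89 to 0.98 in the hypomorph and -1.30 to -0.65 in wild type. On the wild-type arrays T cell markers stood at -0.08, 0.025 and 0.60, and NK cell markers at -0.54, 0.04 and 0.35. Neutrophil markers stood there at -0.30, -0.14 and 0.02, and megakaryocyte and platelet markers at 0.19, 0.08 and -0.03. In none of these further lists was replicate 2 the lowest wild-type array. The poly-A spike-in signal of the wild-type arrays was 9.96, 9.53 and 8.95, so replicate 2 was intermediate. The part of these cell types in the values of the replication and mitosis genes was not tested. A fit with the spike-in signal as a covariate, in which 0 of the 35 genes passed, is given with the other alternatives below. On the hypomorph arrays that signal was 7.58 to 7.90, below every wild-type array. The fit thus cannot tell a spike-in difference from a genotype difference.

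**Figure D3:**
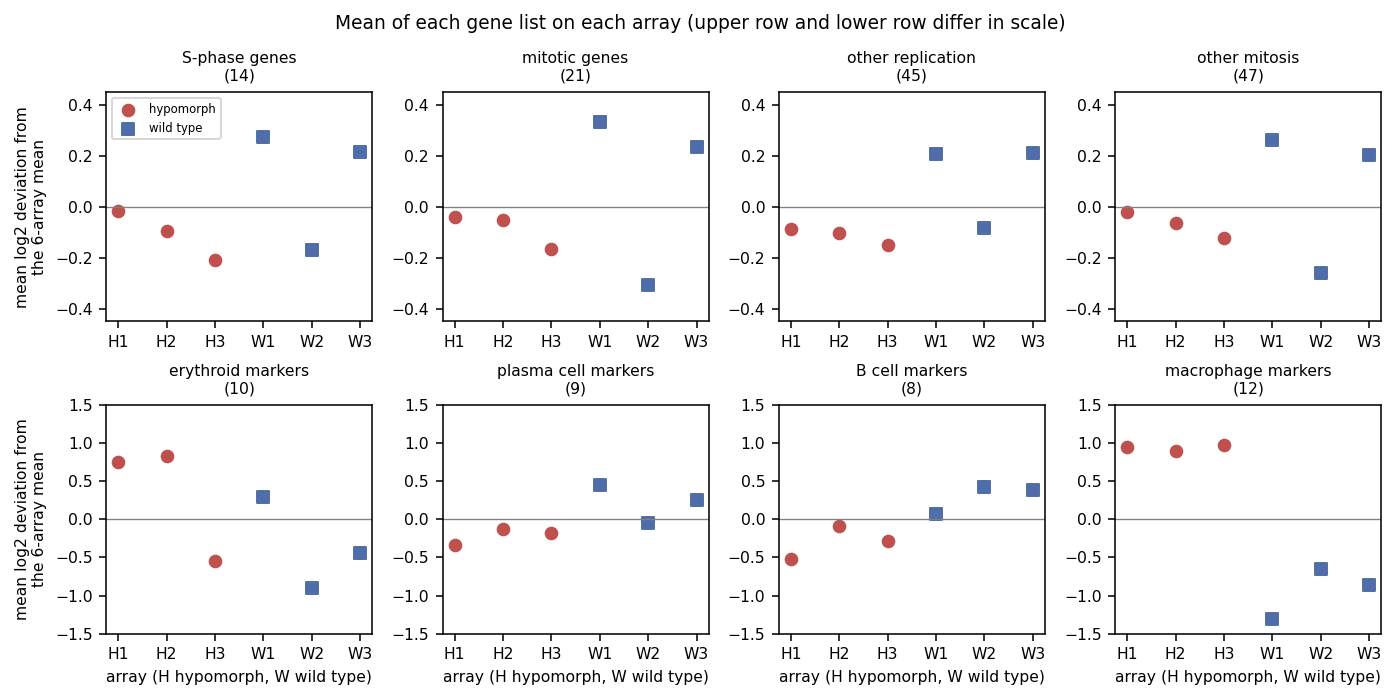
Mean log2 deviation from the 6-array mean for 8 gene lists on each hypomorph (H, red circles) and wild-type (W, blue squares) array, with the number of genes in parentheses. The scale of the lower row is wider than that of the upper row. The mitotic mean is lowest on wild-type replicate 2 (-0.31), where the erythroid mean is also lowest (-0.90). On other arrays these lists part: wild-type replicate 3 has a mitotic mean of 0.23 and an erythroid mean of -0.44. Hypomorph replicates 1 and 2 have mitotic means of -0.04 and -0.05 and erythroid means of 0.75 and 0.84.

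A further list of 45 measured replication genes outside the 38 was counted in the same fit. Of these, 8 fell and 0 rose (against 8.47% and 9.76% of all genes), and 43 of 45 were below 0 (59% of all genes), with a median of -0.17. The 4 of smallest p were Cdc7, Timeless, Pold1 and Pola2, and the others were Orc6, Dnmt1, Hells and Orc2 (log2 changes from -0.43 to -0.33). The count of fallen genes was 17 without wild-type replicate 2 (8.78% of all genes fell). It was 1 or 2 without any 1 hypomorph array (1.55% to 2.78% of all genes fell).

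Cdc7, which encodes the kinase that activates the MCM helicase at origins, had 6.97, 6.74 and 6.76 in the hypomorph, against 7.65, 7.39 and 7.70 in wild type. It was 1.69-fold lower (log2 change -0.76, SE 0.112, adjusted p = 0.00664), stayed past the threshold without any 1 array (adjusted p from 0.00411 to 0.0397), and its second probe set was at -0.47 (adjusted p = 0.055). Timeless, for a fork protection protein, had 7.04, 7.04 and 7.08 in the hypomorph, against 7.75, 7.45 and 7.63 in wild type (-0.56, SE 0.093, adjusted p = 0.0104, lost without hypomorph replicate 2 at an adjusted p of 0.0506). Pold1, the catalytic subunit of polymerase delta, fell by 0.58 (adjusted p = 0.0136), and its other probe set fell too (-0.45, adjusted p = 0.0133). Pola2, a subunit of the polymerase that makes primers, fell by 0.37 (adjusted p = 0.0157). The calls of Pold1 and Pola2 were lost without any 1 hypomorph array. By the probe sets used for Cdc7, Timeless, Pold1 and Pola2 the hypomorph arrays were all below the wild-type arrays, wild-type replicate 2 included. The second probe sets of Timeless (-0.40, adjusted p = 0.258) and Pola2 (-0.32, adjusted p = 0.165) did not pass, and their groups overlapped.

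Of 47 other mitosis genes, 1 fell and 2 rose (against 8.47% and 9.76% of all genes). With a median of -0.14, 41 were below 0 (59% of all genes), and 31 were lowest of all arrays on wild-type replicate 2 (15.9% of all genes). Without that array 19 fell (8.78% of all genes). Gtse1, a microtubule-binding protein gene of G2 phase, fell 1.30-fold (-0.38, adjusted p = 0.0311), a call lost without any 1 array other than wild-type replicate 2 (adjusted p up to 0.118). Ncapg2, for a subunit of condensin II, went the other way from most of the list: it had 9.42, 9.38 and 9.37 in the hypomorph, against 8.21, 8.07 and 8.49 in wild type. It rose 2.20-fold (log2 change 1.13, SE 0.115, adjusted p = 0.00192), a call kept without any 1 array. Pttg1, for securin, rose 1.34-fold by its brightest probe set (adjusted p = 0.0265, lost without any 1 array other than wild-type replicate 2) and by a second (0.62, adjusted p = 0.00489), but another probe set of it fell (-0.53, adjusted p = 0.0417).

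Of 35 regulators of the cycle, 5 rose and 1 fell (against 9.76% and 8.47% of all genes), with a median of 0.09. Among the risen were genes of CDK inhibitors and antiproliferative proteins. Cdkn1a, for the CDK inhibitor p21, had 7.82, 7.73 and 7.76 in the hypomorph, against 6.72, 7.11 and 7.06 in wild type (1.74-fold, log2 change 0.80, SE 0.115, adjusted p = 0.00612). Cdkn1b, for p27, had 10.35, 10.32 and 10.43 in the hypomorph, against 9.29, 9.50 and 9.75 in wild type (1.81-fold, 0.85, SE 0.122, adjusted p = 0.00603). Both genes have a second probe set that rose as well (0.56, adjusted p = 0.0079, and 0.62, adjusted p = 0.0479), and both calls held without any 1 array.

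Btg2, for an antiproliferative protein induced by p53, had 11.85, 11.68 and 11.89 in the hypomorph, against 10.53, 11.14 and 11.17 in wild type (0.86, SE 0.177, adjusted p = 0.0197). Its relative Btg1 rose by 0.66 (adjusted p = 0.0167), and another probe set of Btg1 did not pass (0.43, adjusted p = 0.0995). Both calls were lost without any 1 hypomorph array. In these genes wild-type replicate 2 was not the lowest array: Cdkn1a, Btg1 and Btg2 were lowest on wild-type replicate 1, as was Cdkn1b. Max, for the partner protein of MYC, rose (0.44, adjusted p = 0.0211, lost without hypomorph replicate 2 or 3 or wild-type replicate 3, at up to 0.0901), and Mycn fell (-0.43, adjusted p = 0.022, lost without any 1 hypomorph array, with its 2 other probe sets not passing), whereas Myc, at 8.88 to 9.21 in the hypomorph and 7.76 to 8.96 in wild type, did not pass (0.61, adjusted p = 0.192). Of the E2F pathway, named after their values were seen, E2f1 (0.13, adjusted p = 0.539), E2f8 (0.10, adjusted p = 0.60) and Rb1 (0.39, adjusted p = 0.085) did not pass, nor did the B-MYB gene Mybl2 (-0.47, adjusted p = 0.221). Macrophage markers were higher on the same hypomorph arrays, and their part in the regulator values was not tested.

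**Figure D4:**
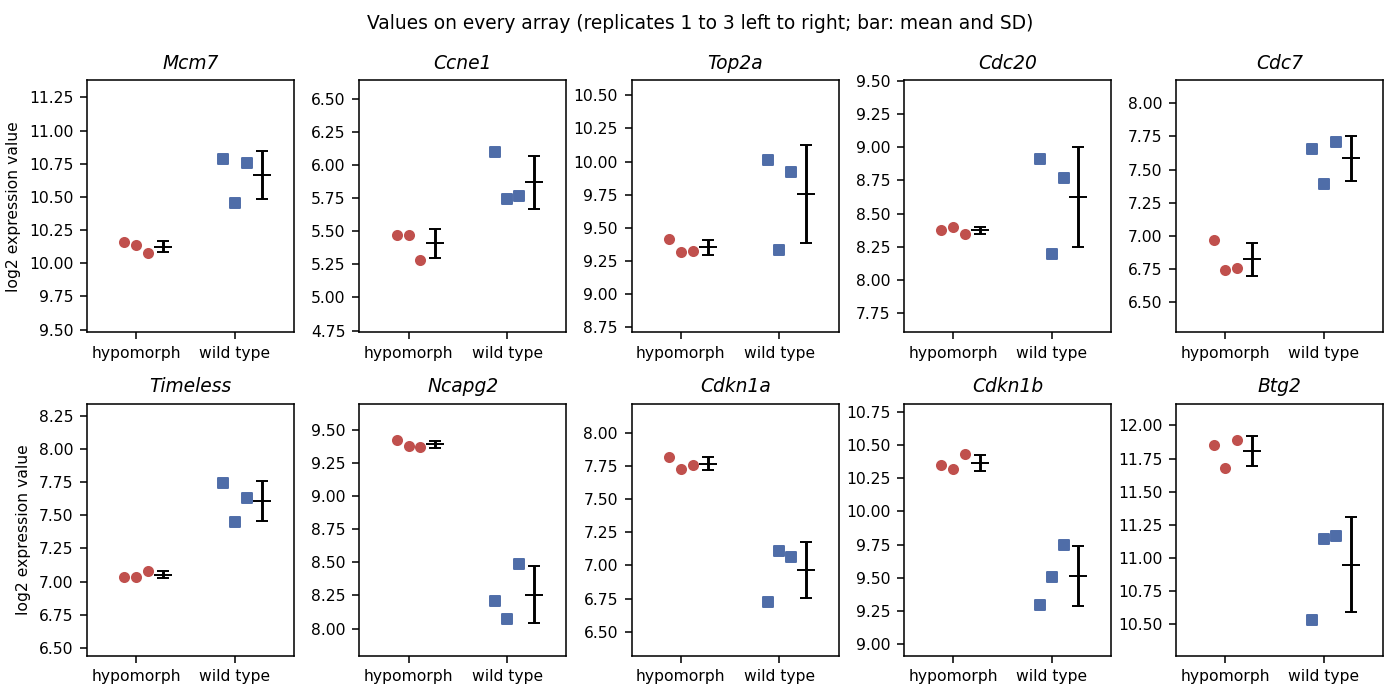
Log2 expression values of 10 genes on every array (hypomorph red circles, wild type blue squares, replicates 1 to 3 from left to right) with mean and SD (n = 3 each) beside them, each panel spanning the same number of log2 units. Mcm7, Ccne1, Cdc7, Timeless, Ncapg2, Cdkn1a, Cdkn1b and Btg2 have groups that do not overlap, while for Top2a and Cdc20 wild-type replicate 2 lies among or below the hypomorph arrays.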

How the data were processed

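RNA of CD11c+ splenic cells from 3 Atg16L1 hypomorph and 3 wild-type samples was measured on Affymetrix arrays. The authors deposited 1 log2 value per probe set and array, made with Affymetrix Power Tools per the submitters' processing notes, whose version and summarization method those sources do not state. The log base was inferred from the range of the values, and normalization between arrays from their close medians. Precision is set by the number of arrays, 3 in each group.

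Of 22625 probe sets other than controls, 20379 named exactly 1 gene in the platform annotation, and 691 that named several were left out. Of the 35 measured members 18 had several probe sets. The hypomorph minus wild-type change was fitted over 12393 genes by lmFit and eBayes of limma 3.58.1, run in R 4.3.3, two-sided, with no covariate and no filter on dim genes, and "rose" or "fell" means a Benjamini-Hochberg adjusted p under 0.05. The script was tested on simulated data. Python 3.11.15 prepared tables, promoter matches and plots.

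The members and lists were chosen with earlier results of these data known. The named genes were the measured members, Atg16l1 and, from each further list, the 4 genes of smallest p past the threshold in each direction. Orc2, Orc6, Dnmt1, Hells, Max, Myc, the cell type markers and the E2F pathway genes fall outside that rule and were picked with their values known, as were the promoters of Top2a and Cdc20. Alternatives were other probe set rules, level filters, quantile normalization, centring, array weights, a replicate block, a minimum change, a spike-in covariate and leaving out each array. Replicate numbers were not taken to pair samples.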

Additional observations from a re-analysis of the deposited data

How the results depend on the processing

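With limma the 2 fallen S-phase genes, which are also the 2 fallen of all 35, were 1 with the mean of probe sets, after quantile normalization or with the replicate block. They were also 1 with genes above the median level, a fit that leaves Ccne1 out because its mean level is below that of the median gene. They were 0 with a minimum change of 1.5-fold or with the spike-in covariate. No gene of the whole table passed with that covariate (1149 at an unadjusted p under 0.05), and its standard errors had a median of 2.96 times those without it. Leaving out 1 array gave 0 to 16 fallen of 35, 0 to 5 S-phase and 0 to 11 mitotic. Of the 127 other listed genes 7 rose and 10 fell (5.51% and 7.87%, against 9.76% and 8.47% of all genes). The fallen were 16 with array weights (12.6%, against 11.3% of all genes) and 3 with the replicate block (2.36%, against 3.86%). Without 1 array the fallen ran from 1 (without hypomorph replicate 2, where 1.82% of all genes fell) to 39 (without wild-type replicate 2, where 8.78% fell). In those fits the risen were 3 to 7, where 4.44% to 9.55% of all genes rose. Both were 0 with the minimum change or the covariate. The other fits, including every probe set, centring, trend with robust fitting and the lower quartile filter, kept these counts within 1.5 times. Same-numbered samples deviated together with correlations of 0.15, 0.01 and 0.11, so the numbers were not taken as pairs. Among changes whose sign turned, those of Ccne1, Btg1 and Btg2 had passed the test before. With the covariate the values were Ccne1 0.091, Ccne2 0.32, Cdc6 0.67, Rrm2 0.067, Cdk1 0.054, Mki67 0.090, Cenpa -0.11, Plk1 0.26, Bub1b 0.085, Ttk 0.13, Ube2c 0.023, Kif11 -0.048, Tpx2 0.039, Btg1 -0.054 and Btg2 -0.047. After quantile normalization they were Pcna -0.0034, Cenpa -0.029 and Ttk 0.0020, with the mean of probe sets Rrm1 0.019, Ccna2 -0.049 and Aurkb -0.035, and with array weights Ccna2 -0.0007, Cenpa -0.028 and Aurkb -0.0033. Without 1 array the ranges that cross 0 were -0.44 to 0.13 for Cdc6, -0.19 to 0.032 for Rrm1, -0.39 to 0.026 for Rrm2, -0.0054 to 0.21 for Tk1, -0.19 to 0.19 for Ccna2, -0.15 to 0.088 for Cenpa, -0.11 to 0.097 for Aurkb, -0.37 to 0.083 for Birc5, -0.21 to 0.096 for Ttk, -0.080 to 0.20 for Kif11 and -0.37 to 0.013 for Nusap1. The causes were not tested.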

Other observations

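Probe sets that name a member together with another gene were not used above. The one shared by Tyms and its pseudogene was at 7.15, 7.01 and 7.07 on the hypomorph arrays, against 7.70, 7.14 and 7.52 on the wild-type arrays (difference -0.38). The one shared by Foxm1, Pebp1 and Tex52 was at 5.65, 5.20 and 5.52 in the hypomorph, against 6.53, 5.77 and 6.12 in wild type (difference -0.69).

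The 35 genes have 66 probe sets of their own. Of these, 56 had a change below 0, and 37 were lowest of all arrays on wild-type replicate 2. Among all single-gene probe sets tested with limma, 4 of them were lower and 0 higher in the hypomorph past the threshold. The same shares over all single-gene probe sets are not given here. By the probe set used for each gene, 59% of all genes were below 0 and 15.9% were lowest on wild-type replicate 2. By that count 8.47% of all genes fell and 9.76% rose, so the 4 lower probe sets are not shown to exceed the background.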
